A study of Mus musculus with 6 samples.

Results

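The cells described here were picked from 6 single-cell RNA-seq libraries of mouse small intestinal mucosa as candidate macrophages and conventional dendritic cells (cDCs), the phagocytes and antigen-presenting cells that lie under and between the epithelial cells of the gut. A barcode, the droplet tag that stands for 1 cell, was kept when it held at least 500 UMIs (unique molecular identifiers, the count of captured RNA molecules) and at least 200 genes. It was then gated as a member when it held no UMI of Cd3e (T cells), Cd79a (B cells) or Siglech (plasmacytoid dendritic cells) and at least 3 of the 10 genes Lyz2, C1qa, C1qb, Csf1r, Cd68, Tyrobp, Fcer1g, Itgax, Flt3 and Cst3, among them at least 1 of C1qa, C1qb, Csf1r, Lyz2, Itgax or Flt3. The gate took 599 of 60431 kept barcodes, or 0.991%. The values of these genes chose the cells, so their levels are given as a description and carry no finding about identity.

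Intestinal macrophages arise mostly from blood monocytes. They depend on the receptor encoded by Csf1r, produce the C1q chains that start the classical complement pathway, and clear dead cells and bacteria. Conventional dendritic cells depend on the receptor tyrosine kinase encoded by Flt3, carry the integrin CD11c encoded by Itgax, and present antigen to T cells on MHC class II. CD11c is not specific to dendritic cells, since activated T cells and intraepithelial lymphocytes of the gut can carry it too.

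The 3 IE-HuR-/- libraries came from mice in which floxed HuR (gene Elavl1, an RNA-binding protein that stabilises many mRNAs) was deleted by a villin-Cre transgene, which is active in intestinal epithelial cells. Immune cells lie outside that deletion, whereas epithelial barcodes that passed the gate would lie within it. The 3 control libraries came from littermates, which the study describes as HuR fl/fl mice without the deletion and the labels call wild-type. Both groups were young adult C57BL/6 mice matched for age and sex by the study, and the study describes 3 animals per genotype, while the labels number the libraries as replicates without naming animals. Mucosal cells were released with EDTA and enzyme and were not sorted. The summed UMIs of the gated cells were 460906, 813397 and 385415 in control replicates 1, 2 and 3, and 680565, 648726 and 1032850 in IE-HuR-/- replicates 1, 2 and 3. In every pair of libraries, between 22 and 44 kept barcodes carried the same tag, and none of these was shared between gated cells.

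The gated cells did not form one cell type. A UMI of Ptprc, which encodes the leukocyte antigen CD45, was found in 353 of 599. A UMI of at least 1 of 10 T and NK cell genes (Cd3d, Cd3g, Trac, Trbc1, Trbc2, Trdc, Nkg7, Klrd1, Gzma, Ccl5) was found in 408 of 599, and a UMI of the enterocyte apolipoprotein gene Apoa1 in 591 of 599. Itgax was detected in 285 cells and Flt3 in 29, and 261 cells held Itgax without Flt3. In barcodes with a Cd3e UMI, which should lack the macrophage genes, a C1qa or C1qb UMI was found in 0.112% to 1.36% by library, whereas Itgax was found in 10.8% to 21.6%. The median depth of these Cd3e-positive barcodes was 3998.5 to 5295 UMIs by library, against 3940 UMIs in the gated cells. Of 8233 barcodes with a Cd3e UMI, 1129 (13.7%) met the marker part of the gate and 1122 were kept out by Cd3e alone. The members are therefore called marker-gated cells below.

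At the edge of the gate, 181 cells held exactly 3 of the 10 markers and 418 held 4 or more, and 334 barcodes just outside held 2. The gated cells were divided by the genes that the gate names. C1q-positive cells (233) held a C1qa or C1qb UMI and no Flt3 or Itgax UMI. Flt3/Itgax-positive cells (257) held the reverse, 33 cells held both, and 76 held neither. C1qa lies on chromosome 4 at 136895917 to 136898803, next to C1qc (136889804 to 136893065) and C1qb (136880129 to 136886187), all on the minus strand of GRCm38. Itgax lies at chr7:128129547-128150657 and Flt3 at chr5:147330741-147400489.

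Clustering of the 599 cells, used only to describe them, gave 10 groups, of which 181 cells (30.2%) took a macrophage-, monocyte- or cDC-like name from fixed marker lists. Cluster 2 (72 cells) and cluster 6 (32 cells) were macrophage-like. Cluster 2 was led by Pla2g2d, Gpnmb, Dnase1l3 and Adamdec1, a metalloprotease-like gene typical of gut macrophages. Cluster 6 was led by Retnla, Prg4, Saa3 and Fn1 and held Lyve1, Marco and Pf4. C1qa, a chain of complement C1q, stood at 4176 CPM in cluster 2, 2795 CPM in cluster 6 and 940.1 CPM in the largest unnamed cluster, and was 0 in the T or NK-like cluster. Lyve1, a hyaluronan receptor of some resident macrophages, stood at 533.0 CPM in cluster 6 and had no UMI in cluster 2. Over the macrophage-, monocyte- and cDC-like cells it stood at 129.7, 0 and 958.3 CPM in control replicates 1, 2 and 3. In IE-HuR-/- replicates 1, 2 and 3 it stood at 20.1, 0 and 0 CPM. Control replicate 3 gave only 2 of the cells of cluster 6, so the Lyve1 level there rests largely on few cells. CPM is the UMI count of a gene scaled to a common total of the cells summed, and TMM-scaled CPM below also adjusts that total for differences in RNA composition. These levels are a description, since the clusters were built from the expression of the same cells.

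The cDC-like cluster 3 (51 cells) had Ccl17, Plet1, Cd209a, H2-Eb1 and Wdfy4 among its leading genes and held 25 of the 29 cells with a Flt3 UMI. Ccl17 came mostly from IE-HuR-/- replicate 2, which gave 6 cells of this cluster. Over the macrophage-, monocyte- and cDC-like cells it stood at 885.7 CPM in that library and at most 101.7 CPM in any other. Flt3 stood there at 106.7 CPM, Cd209a, a lectin of cDC2, at 387.7 CPM, and Cd74, the MHC class II invariant chain, at 20654 CPM. Xcr1, the chemokine receptor of cDC1, was found at 24 UMIs in 2 cells, both in this cluster and both from control replicate 1. The monocyte-like cluster 7 (26 cells) had Ly6c2, Chil3 and Ccr2 among its leading genes, and Ly6c2 stood there at 701.4 CPM. No UMI of C1qa, C1qb or Flt3 was found in it.

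The other 418 cells fell outside these names. The T or NK-like cluster 1 (150 cells) was led by Gzma, Ccl5 and Gzmb, with Gzma, a granzyme of cytotoxic lymphocytes, at 52892 CPM, and 148 of its cells were Flt3/Itgax-positive. The epithelial-like cluster 4 (38 cells) had a median of 24796.5 UMIs and supplied 30.1% of all UMIs of the gated cells. The unnamed cluster 0 (171 cells, median 1148 UMIs) was led by the goblet cell genes Zg16, Tff3, Fcgbp and Clca1, and 138 of its cells were C1q-positive. Its best match among the fixed marker lists was macrophage, with 3 markers up (Aif1, Ms4a7 and Fcgr1). That name was withheld because goblet cell genes led the cluster, so what these cells are was not settled. The unnamed cluster 5 (36 cells) was led by Gip, the mast cell proteases Mcpt1 and Mcpt2, and globin genes. Neutrophil-like (16 cells) and fibroblast-like (7 cells) clusters were the smallest. Doublets were not called.

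**Figure D1:**
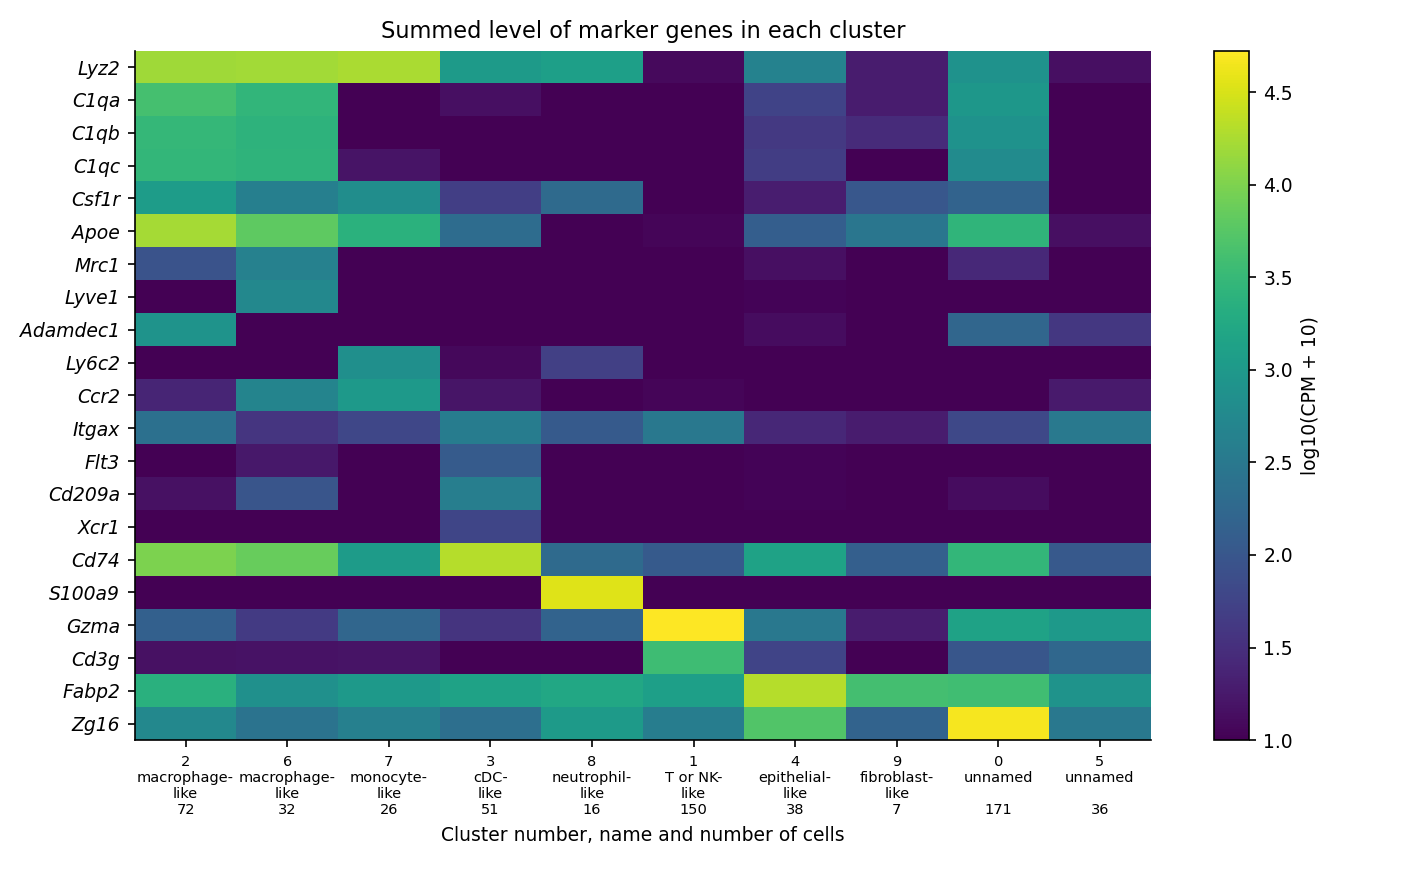
Summed level of 21 marker genes (rows) in the 10 clusters of the 599 marker-gated cells (columns, with name and number of cells), as log10(CPM + 10). C1qa is high in clusters 2 and 6, Flt3 in cluster 3, Ly6c2 in cluster 7, Gzma in cluster 1 and Zg16 in cluster 0.

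Neither gene pair marked off 1 named class. Of the 233 C1q-positive cells, 78 were in macrophage-like clusters and 138 in the goblet gene cluster 0. Of the 257 Flt3/Itgax-positive cells, 42 were in the cDC-like cluster and 148 in the T or NK-like cluster. Of the 33 cells with both, 20 were macrophage-like. The median depth was 1349 UMIs in C1q-positive and 5647 UMIs in Flt3/Itgax-positive cells, and the median number of C1qa and C1qb UMIs in a C1q-positive cell was 4, with 37 cells holding only 1.

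**Figure D2:**
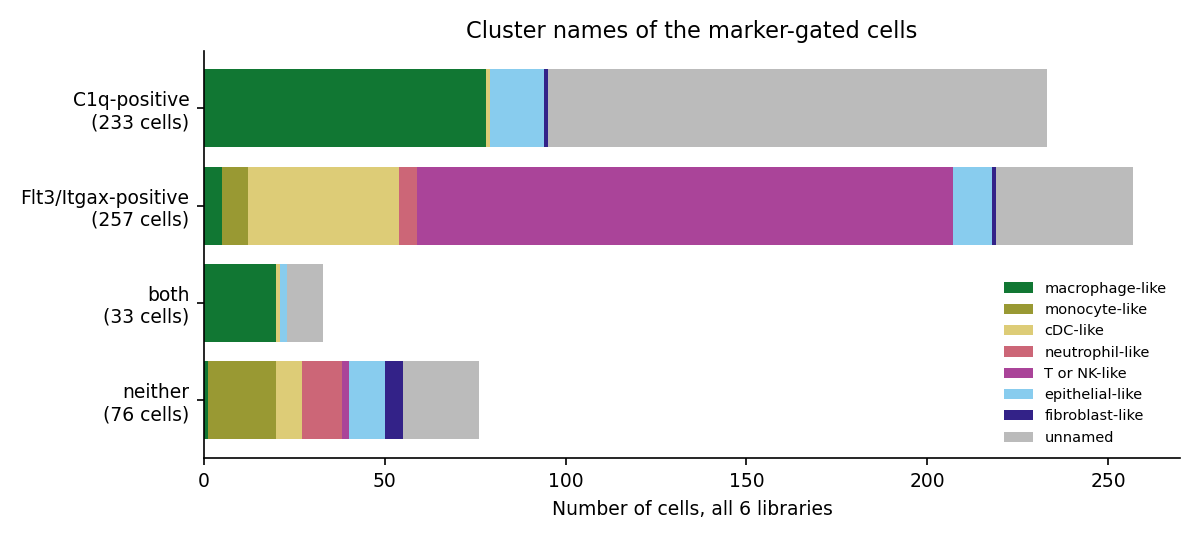
Number of marker-gated cells (horizontal axis, all 6 libraries) by the gene pair they held (rows) and the name of their cluster (colours). Macrophage-like clusters hold 78 of 233 C1q-positive cells, and the cDC-like cluster 42 of 257 Flt3/Itgax-positive cells.

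The first comparison by label asked how common the gated cells were. They made up 0.590%, 0.612% and 0.658% of kept barcodes in control replicates 1, 2 and 3 and 1.33%, 1.53% and 1.57% in IE-HuR-/- replicates 1, 2 and 3, so every IE-HuR-/- library lay above every control library. The exact binomial 95% intervals, which cover counting error only, were 0.450% to 0.761% in control replicate 1 and 1.10% to 1.59% in IE-HuR-/- replicate 1, the 2 libraries at the low end of each group. The means were 0.620% ± 0.035 and 1.48% ± 0.128 (SD, n = 3), a ratio of 2.38, with p = 0.1 in a two-sided exact permutation test, which is the smallest p that 3 against 3 libraries allow. C1q-positive cells had means of 0.189% ± 0.017 and 0.643% ± 0.038 of kept barcodes, and Flt3/Itgax-positive cells had means of 0.276% ± 0.055 and 0.621% ± 0.052 (SD, n = 3 each).

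The groups stayed apart in share when gated cells with a T or NK gene UMI were left out (0.190% ± 0.026 against 0.483% ± 0.031, SD, n = 3) and when each cell was thinned to 500 UMIs before the gate (0.246% ± 0.084 against 0.615% ± 0.125). That thinning also removed UMIs of Cd3e, Cd79a and Siglech, so barcodes kept out by their full counts could enter. Of barcodes with a Ptprc UMI, gated cells made up 2.53%, 2.57% and 3.72% in the control libraries and 3.73%, 4.47% and 3.99% in the IE-HuR-/- libraries, a ratio of 1.38 (p = 0.1 in the same exact test), with control replicate 3 and IE-HuR-/- replicate 1 nearly equal. T cell values moved with these shares. Barcodes with a Cd3e UMI made up 12.9%, 11.0% and 9.81% of kept barcodes in the control libraries and 15.9%, 16.8% and 17.4% in the IE-HuR-/- libraries, and 14.7%, 10.8% and 17.4% against 18.9%, 20.2% and 21.6% of them held an Itgax UMI. Their part in the shares of gated and of Flt3/Itgax-positive cells was not tested. Fewer epithelial barcodes per library and more gated cells cannot be told apart from a share of barcodes. The sizes of clusters were given no test by label. As numbers of cells, cluster 2 held 8 from control and 64 from IE-HuR-/- libraries, and cluster 6 held 15 and 17. The cDC-like cluster held 10, 10 and 8 control cells and 11, 6 and 6 IE-HuR-/- cells, and the monocyte-like cluster 7, 7 and 5 control cells and 2, 3 and 2 IE-HuR-/- cells. The T or NK-like cluster held 7, 21 and 12 control cells and 31, 40 and 39 IE-HuR-/- cells.

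**Figure D3:**
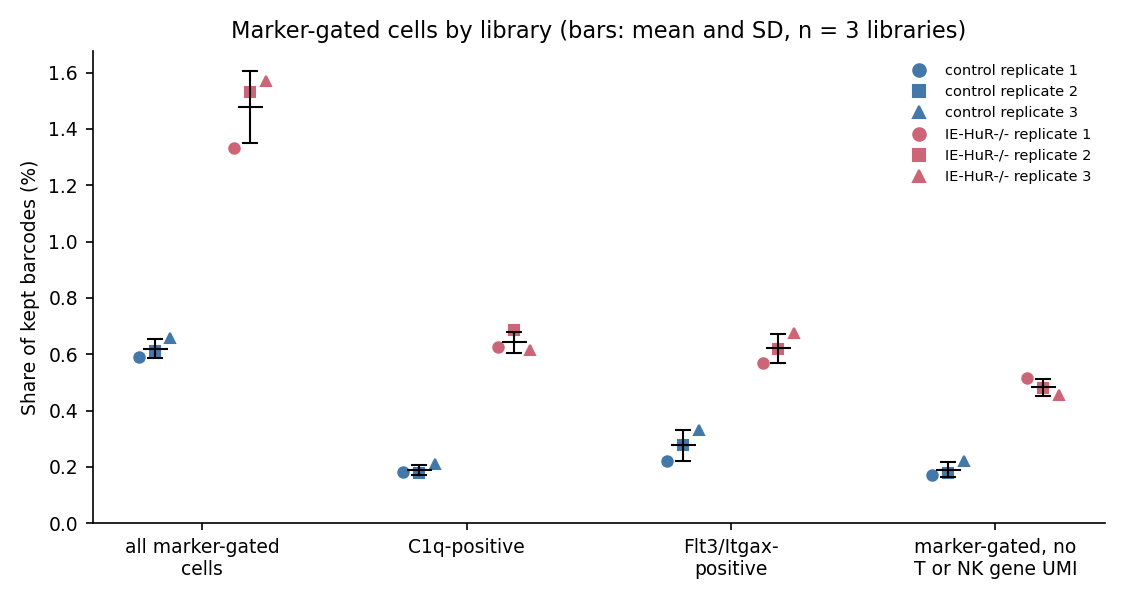
Share of kept barcodes (%, vertical axis) taken by all marker-gated cells, C1q-positive cells, Flt3/Itgax-positive cells and marker-gated cells with no T or NK gene UMI, 1 point per library with the mean and SD of 3. The control libraries of all gated cells lie between 0.590% and 0.658%, and the IE-HuR-/- libraries between 1.33% and 1.57%.

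The share of C1q-positive cells among the 2 classes was 45.0%, 39.1% and 38.8% in the control libraries and 52.3%, 52.6% and 47.7% in the IE-HuR-/- libraries. The groups did not overlap (41.0% ± 3.50 against 50.9% ± 2.74, SD, n = 3, exact permutation p = 0.1, the smallest possible). They overlapped in share under a minimum of 500 genes and a mitochondrial limit of 25% per cell (33.7% ± 6.61 against 36.0% ± 3.40, exact permutation p = 0.7). They also overlapped with at least 1000 UMIs per cell (37.1% ± 5.15 against 43.7% ± 3.49, exact permutation p = 0.2), with the gate on thinned cells (64.7% ± 11.1 against 76.1% ± 3.89, exact permutation p = 0.2) and without cells high in epithelial UMIs (16.6% ± 9.27 against 19.8% ± 4.18, exact permutation p = 0.7). They stayed apart with at least 4 markers and without the 5% of cells with the most UMIs. Without cells with a T or NK gene UMI they also stayed apart (72.7%, 68.75% and 56.25% against 89.7%, 96.7% and 85.2%). Only 1 to 7 Flt3/Itgax-positive cells per library were left there. A T or NK gene UMI was found in 69.5% ± 2.47 of gated cells in control and 67.0% ± 5.08 in IE-HuR-/- libraries (SD, n = 3, exact permutation p = 0.6), and the groups overlapped.

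C1q-positive and Flt3/Itgax-positive cells differed widely in genes that the gate did not use. With UMIs summed per library and class and the library as a block, 1103 of 3220 genes passed edgeR's quasi-likelihood test at an adjusted p under 0.05, which is 34.3% of the genes tested. Of these, 639 (19.8%) were higher and 464 (14.4%) lower in C1q-positive cells. Of the calls, 57.9% were higher in C1q-positive cells with TMM scaling and 39.0% without it. The median log2 difference of all genes was 0.03 and −0.20 in these fits. The calls describe the cells the 2 gene pairs picked, which differ in depth, in epithelial RNA and in T cell content, and the part of each was not tested.

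Of 25 macrophage markers, 10 outside the gate passed the filter on low counts, of which 9 were called higher in C1q-positive cells. A gene near 0 in one class passed the filter only through the class where it is high, so the counts of the macrophage, complement, chemokine, and T or NK lists describe these genes and support nothing. C1qc, the chain of C1q that the gate did not use, stood at 2735, 1275, 3748, 1004, 3214 and 520.3 TMM-scaled CPM in the C1q-positive cells of control replicates 1 to 3 and IE-HuR-/- replicates 1 to 3. It had no UMI in the Flt3/Itgax-positive cells of any library, so it was at least 946-fold higher, taking 3 UMIs over that group as the floor. Apoe, a lipid carrier made by macrophages, stood between 2870 and 15546 CPM in C1q-positive and between 60.2 and 252.2 CPM in Flt3/Itgax-positive cells, a log2 difference of 5.62 ± 0.43 (SE, adjusted p = 1.33e-06).

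Several other genes had large rises. Pf4, a chemokine of resident macrophages and platelets, was counted at 775 UMIs in C1q-positive cells and 1 UMI in Flt3/Itgax-positive cells, a ratio of 1508 with a 95% counting interval of 269.9 to 59640. Cluster 6, which held 25 of the 233 C1q-positive cells, had 684 Pf4 UMIs over all its cells, so this rise came mostly from a small part of the class. C4b, a complement component, was counted at 275 UMIs against 1, a ratio of 535 with a 95% counting interval of 95.2 to 21211. Wfdc17, a small secreted protein of macrophages, rose by a log2 difference of 5.61 ± 0.56 (SE). Ednrb, an endothelin receptor, was at least 169-fold higher, and C3ar1, the receptor for complement C3a, at least 67.5-fold. Msr1, a scavenger receptor, rose by a log2 difference of 6.20 ± 0.47, and Ccl24, an eosinophil chemokine, by 5.65 ± 0.44 (SE). Fn1, the fibronectin gene that also leads macrophage-like cluster 6, rose by 6.77 ± 1.63 (SE, adjusted p = 0.0164). It was found in 23 of the 233 C1q-positive cells, and cluster 6 had 2537 Fn1 UMIs over all its cells. Without IE-HuR-/- replicate 1 its adjusted p was 0.102. In the list of complement and uptake of dead cells, 9 of 24 genes passed the filter and 8 were called higher, among them Cfp, which encodes properdin, at 3.09 ± 0.34 and Cd36, a scavenger receptor, at 2.70 ± 0.43 (SE).

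Of 24 tested lysosomal proteases and hydrolases, 20 were called higher in C1q-positive cells and none lower, with a median log2 difference of 1.19. Of all genes tested, 19.8% were called higher and 14.4% lower, with a median of 0.03. Ctsb, cathepsin B, rose by 2.66 ± 0.32, Ctsd, cathepsin D, by 1.59 ± 0.40, and Fth1, the ferritin heavy chain, by 1.43 ± 0.28 (SE). Of 7 chemokine genes tested, 4 were called higher (Ccl6, Pf4, Ccl9, Ccl24) and 2 lower (Ccl5, Ccl4). Some of these, such as Pf4 and Ccl24, passed the filter through C1q-positive cells alone, so this count is a description. The Ccl6 call was lost without IE-HuR-/- replicate 1 (adjusted p = 0.0908).

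Of 19 T or NK markers, 10 passed the filter on low counts, and these were called lower in C1q-positive cells. Gzma (chr13:113093825-113100981) stood at 12168, 14636 and 22866 CPM in Flt3/Itgax-positive cells of the control libraries and 28549, 39054 and 25142 CPM in those of the IE-HuR-/- libraries, against 54.1 to 155.6 CPM in C1q-positive cells. Itgae, the CD103 integrin chain carried by intraepithelial lymphocytes and by many intestinal cDCs, was counted at 920 UMIs in Flt3/Itgax-positive and 1 UMI in C1q-positive cells. Gimap7, a lymphocyte GTPase, was at least 103-fold lower in C1q-positive cells, and Ccl5 fell by 7.38 ± 0.41 and Gzmb fell by 8.03 ± 0.38 on the log2 scale (SE).

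Few conventional dendritic cell and antigen presentation genes passed the test. Of 9 MHC class II genes tested, 8 were fitted lower in C1q-positive cells (median −0.64 against 0.03 for all genes) and 3 had an unadjusted p under 0.05. The gene that passed was Ctss, cathepsin S, which was higher in C1q-positive cells (1.11 ± 0.25, SE, adjusted p = 0.0058). Cd74 stood between 1714 and 7019 CPM in C1q-positive and between 2728 and 17425 CPM in Flt3/Itgax-positive cells, with overlapping ranges (−0.64 ± 0.38, SE, adjusted p = 0.199). Of the tested pan-cDC (2) and cDC1 (3) markers none passed, and of 4 cDC2 markers Itgam was called higher in C1q-positive cells. Of 18 epithelial genes, 12 were called higher in C1q-positive cells (median 1.59), against 19.8% of all genes tested (median 0.03). Fabp2, the intestinal fatty acid binding protein, led the epithelial genes in level and rose by 1.63 ± 0.35 (SE, adjusted p = 0.0046). Its call was lost without the library block. Gm42418, a locus that collects ribosomal RNA reads and is named after its values were seen, stood at 159656 to 289768 CPM in C1q-positive and at 77077 to 87512 CPM in Flt3/Itgax-positive cells. Of the 69 called genes that the naming rule picked, 47 kept their call whichever library was left out, and 22 lost it in at least 1 such fit. Changes other than leaving out a library cost 29 of the 69 their call, 24 of them without the library block, and 37 were kept under all settings run.

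**Figure D4:**
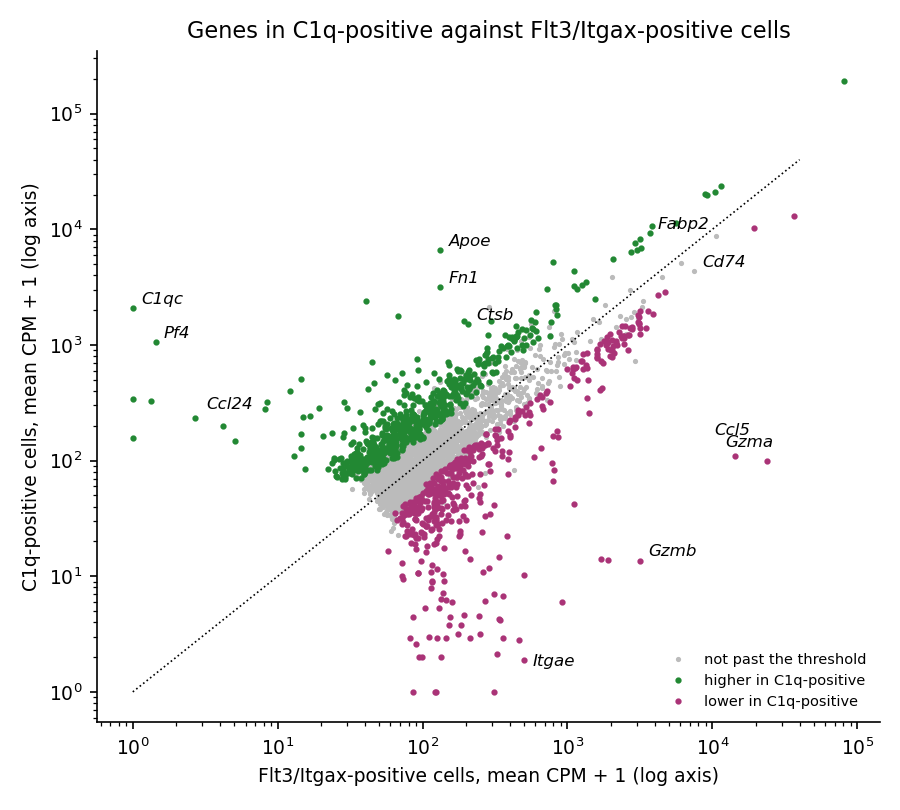
Mean TMM-scaled CPM + 1 over 6 libraries in Flt3/Itgax-positive cells (horizontal log axis) and C1q-positive cells (vertical log axis), 1 point per gene tested outside the gate, coloured where the adjusted p was under 0.05. C1qc, Pf4 and Apoe lie far above the dotted line of equality, Gzma, Ccl5 and Itgae far below it, and Cd74 close to it.

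Elavl1, the gene targeted in the epithelium (chr8:4285382-4325413), was compared by label first. In the gated cells it stood at 49.9, 44.3 and 62.3 CPM (unscaled) in the control libraries and 47.0, 43.2 and 47.4 CPM in the IE-HuR-/- libraries, with overlapping ranges. The log2 difference was −0.18 ± 0.24 (SE) with an edgeR adjusted p of 1.0. In all barcodes outside the gated and Cd3e-positive classes, most of them epithelial, it stood at 32.0, 34.3 and 32.1 CPM in control and 36.0, 34.8 and 37.0 CPM in IE-HuR-/- libraries, so by this count the knockout libraries lay at or above the controls. Reads counted over the whole gene from 1 end of a transcript need not fall in the deleted exons, so the count does not check the labels.

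Over all gated cells edgeR called 1 of 7334 genes (0.0136%) by label, 352 had an unadjusted p under 0.05, and DESeq2 called 16. The edgeR call was Acta1, the skeletal muscle actin gene (chr8:123891769-123894751). Its unscaled level was 0, 0 and 2.6 CPM in control replicates 1 to 3 and 249.8, 242.0 and 315.6 CPM in IE-HuR-/- replicates 1 to 3, with every IE-HuR-/- library far above the controls. That is 653 UMIs against 1, a ratio of 459 with a 95% counting interval of 82.1 to 18150. The fitted log2 difference was 8.36 ± 0.61 (SE, adjusted p = 0.00566). The call was lost without control replicate 1 (adjusted p = 0.113) and without IE-HuR-/- replicate 1 (0.0719). It was also lost with the replicate number as a block (0.605), without the 5% of cells with the most UMIs (0.184) and without cells with a T or NK gene UMI (0.116).

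The same RNA was higher elsewhere in the same libraries. Acta1 stood at 8.8, 7.6 and 12.9 CPM in Cd3e-positive barcodes of the control libraries and 493.3, 631.9 and 546.3 CPM in those of the IE-HuR-/- libraries. In the remaining, mostly epithelial barcodes it stood at 19.0, 17.3 and 15.9 CPM against 1040.3, 1061 and 1021 CPM. Acta1 was thus less abundant in the gated cells than in either of the other classes of every library. The label effect was larger by 2.82 ± 0.89 (SE) on the log2 scale in gated than in Cd3e-positive cells, with an edgeR adjusted p of 1.0 for that difference. The part of free epithelial RNA in the gated cells was not tested.

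**Figure D5:**
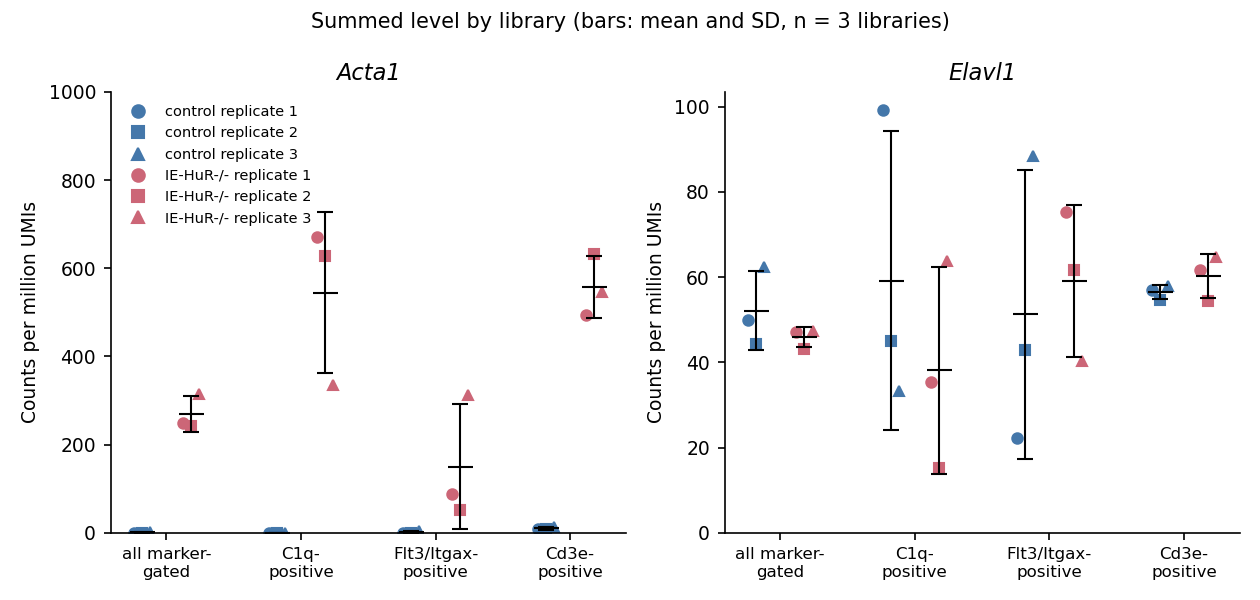
Unscaled CPM of Acta1 (left) and Elavl1 (right) in all marker-gated, C1q-positive, Flt3/Itgax-positive and Cd3e-positive cells, 1 point per library with the mean and SD of 3. Acta1 is at most 12.9 CPM in every control class shown and between 51.0 and 671.3 CPM in the IE-HuR-/- classes, and the Elavl1 ranges of both labels overlap in the gated cells.

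In C1q-positive cells edgeR called 1 of 2727 genes (0.0367%), again Acta1, and DESeq2 called 12. It had no UMI in the control libraries and stood at 671.3, 626.9 and 334.8 CPM in the IE-HuR-/- libraries (340 UMIs), at least 70.8-fold higher with 3 UMIs over the control libraries as the floor. The adjusted p was 0.0487 and the call held only without control replicate 2 among the fits that left out a library. It was 0.138 without control replicate 1, 0.177 without control replicate 3, and 0.265, 0.101 and 0.0768 without IE-HuR-/- replicates 1, 2 and 3. It was 0.981 with the replicate number as a block and 0.101 under the limits of 500 genes and 25% mitochondrial UMIs. In Flt3/Itgax-positive cells none of 4863 genes (0%) was called by edgeR, 203 had an unadjusted p under 0.05, and DESeq2 called 4. Acta1 stood there at 0, 0 and 4.2 CPM in control and 87.5, 51.0 and 312.1 CPM in IE-HuR-/- libraries (adjusted p = 0.996).

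The levels of the gate's own markers by label are a description, since detection of these genes chose the cells. Lyz2, lysozyme 2 of myeloid cells, stood at 4522, 2866 and 4447 CPM (unscaled) in gated cells of the control libraries and 1270, 4903 and 3665 CPM in those of the IE-HuR-/- libraries, with overlapping ranges. C1qa stood at 852.7, 322.1 and 425.5 CPM against 401.1, 903.3 and 620.6 CPM, and Csf1r at 234.3, 84.8 and 168.6 CPM against 152.8, 143.4 and 154.9 CPM. Flt3 was low throughout, between 3.7 and 26.0 CPM in control and between 9.2 and 22.04 CPM in IE-HuR-/- libraries. In C1q-positive cells Apoe stood at 6765, 3020 and 15427 TMM-scaled CPM against 3780, 6374 and 2502 CPM (−0.99 ± 0.74, SE, adjusted p = 0.776). Ccl6, a macrophage chemokine, stood at 3619, 421.3 and 4801 CPM against 154.1, 564.9 and 51.4 CPM (−3.52 ± 1.10, SE, edgeR adjusted p = 0.633, DESeq2 adjusted p = 0.0158).

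No gene list other than the one that holds Acta1 had a member called by label in edgeR. Beside the medians, a count of libraries that do not overlap is given, and 10% of the 7334 genes tested did not overlap, 5.24% with higher and 4.79% with lower IE-HuR-/- libraries. Of 22 interferon-gamma-type genes tested in the gated cells, 18 were fitted higher in IE-HuR-/- libraries and 7 did not overlap, with a median log2 difference of 0.57 against −0.01 for all genes. Fgl2, the most abundant of them and also a gene of activated T cells, stood at 203.9, 260.6 and 412.5 CPM against 512.8, 670.5 and 536.4 CPM (0.97 ± 0.32, SE, adjusted p = 0.958). The summed level of the 19 T or NK genes was 8299, 14341 and 26372 CPM in control and 23727, 41840 and 22838 CPM in IE-HuR-/- gated cells, with Gzma, the most abundant, between 4135 and 20471 CPM and no gene of the list at 0 over all libraries. Its part in the Fgl2 values was not tested. Of 7 monocyte genes tested, all were fitted lower (median −0.79) and 2 did not overlap, with Plac8, the most abundant, at 902.6, 1931 and 729.1 CPM against 956.6, 554.9 and 721.3 CPM. The monocyte-like cluster gave 7, 7 and 5 of the control and 2, 3 and 2 of the IE-HuR-/- gated cells, and its part in these values was not tested.

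The other lists had no edgeR call either. The macrophage list had 8 of 21 genes fitted higher (median −0.22), the cDC2 list 1 of 7 (median −0.68), and the lysosomal list 8 of 27 (median −0.17). The type I interferon-stimulated list had 6 of 26 fitted higher (median −0.24), and 5 of the 26 did not overlap. The epithelial list, whose summed level was 20811, 50091 and 7924 CPM in control and 40297, 15273 and 32604 CPM in IE-HuR-/- gated cells, had 12 of 18 fitted higher (median 0.11). Globin genes were at 1315, 5964 and 85.6 CPM in control and 72.0, 52.4 and 45.5 CPM in IE-HuR-/- gated cells, without a call.

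Within the 2 classes the lists again held no edgeR call but that of Acta1. In C1q-positive cells, where 12% of genes did not overlap by label (4.95% higher and 7.04% lower in IE-HuR-/- libraries), 22 of 26 lysosomal genes were fitted lower and 9 did not overlap, with a median log2 difference of −0.78 against −0.06 for all genes. The list of complement and uptake of dead cells had 15 of 15 fitted lower (median −1.12), and the macrophage list 17 of 19 (median −0.76). In each of these 2 lists 1 gene did not overlap. In the same cells 14 of 18 epithelial genes were fitted higher (median 0.94), and different clusters made up the class in each group. Macrophage-like cluster 2 gave 2, 3 and 2 of the C1q-positive cells in the control libraries and 19, 19 and 8 in the IE-HuR-/- libraries, the deeper macrophage-like cluster 6 gave 7, 3 and 1 against 5, 5 and 4, and the goblet gene cluster 0 gave 9, 15 and 15 against 28, 34 and 37. The part of either in the lysosomal, complement, macrophage, Apoe and Ccl6 values was not tested. In Flt3/Itgax-positive cells, where 10.3% of genes did not overlap (6.4% higher and 3.87% lower), 11 of 14 T or NK genes were fitted higher and 6 did not overlap (median 0.56 against −0.06). Gzma stood there at 12294, 17335 and 20917 TMM-scaled CPM in control and 26497, 35012 and 27932 CPM in IE-HuR-/- libraries, with every IE-HuR-/- library above the controls (0.82 on the log2 scale, edgeR adjusted p = 0.996). Apoe stood there at 254.8, 254.2 and 124.0 CPM against 55.9, 54.4 and 74.9 CPM, with every IE-HuR-/- library below the controls (−1.76 ± 0.35, SE, adjusted p = 0.758). Different clusters made up this class too. The T or NK-like cluster gave 6, 21 and 12 of its cells in the control libraries and 31, 39 and 39 in the IE-HuR-/- libraries, while the cDC-like cluster gave 8, 8 and 6 against 11, 3 and 6, and their part in the T or NK, Gzma and Apoe values was not tested.

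MHC class II genes were tested by label in all gated, C1q-positive and Flt3/Itgax-positive cells, and none passed in edgeR. The summed level of the 16 listed genes was 19306, 5827 and 13645 CPM in control and 13740, 11449 and 6922 CPM in IE-HuR-/- gated cells, with overlapping ranges. In Cd3e-positive barcodes it was 578.0, 695.2 and 651.0 CPM against 2149, 2286 and 2391 CPM, and in the remaining barcodes 924.1, 976.3 and 975.6 CPM against 3798, 3862 and 3804 CPM. In both of those classes the IE-HuR-/- libraries lay above all controls, and no test by label was run within them. The label effect in gated minus Cd3e-positive cells was fitted lower for 13 of 15 genes, with a median of −1.84 against 0.03 for all genes. None of 12283 genes (0%) was called in that comparison by edgeR, 464 had an unadjusted p under 0.05, and DESeq2 called 2. These were H2-Aa, an MHC class II chain (−2.98 ± 0.54, SE, edgeR adjusted p = 0.442), and Itgal, the LFA-1 integrin chain (−3.09 ± 0.52, SE, adjusted p = 0.442), and both are named because of these calls. For Cd74 the value was −2.53 ± 0.59 (SE, adjusted p = 0.69).

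Between C1q-positive and Flt3/Itgax-positive cells, the label effect on MHC class II genes was fitted higher in C1q-positive cells for 12 of 12 genes, with a median of 1.83 against 0.10 for all genes. None of 4665 genes (0%) was called for this difference by edgeR or DESeq2, and 391 had an unadjusted p under 0.05 in edgeR. Cd74 stood at 5057, 1559 and 1850 CPM in C1q-positive cells of the control libraries and at 5670, 6921 and 3507 CPM in those of the IE-HuR-/- libraries (TMM-scaled), where only control replicate 1 reached into the IE-HuR-/- range. In Flt3/Itgax-positive cells it stood at 17605, 3367 and 8255 CPM against 7485, 4270 and 3030 CPM, and the ranges overlapped. The difference of the effects was 1.97 ± 0.53 (SE, edgeR adjusted p = 0.452). The cDC-like cluster, where Cd74 was highest, and the T or NK-like cluster made up unequal parts of the Flt3/Itgax-positive cells of the 2 labels, as given above, and their part in these differences was not tested.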

How the data were processed

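For each of 6 Chromium libraries the authors deposited a matrix of raw UMI counts. The labels name a 5′ reagent kit and the methods a 3′ kit, and the file headers name Cell Ranger 6.1.2 where the methods name another version, with mm10 in the submitters' processing notes. The files held 60706 barcodes against 60000 cells in the series text. The study's own filter (500 genes, 25% mitochondrial UMIs) left 29965, and the gate's minimum left 60431. Counts were summed per library and class, and libraries, not cells, were replicates. Where fewer than 10 cells of a class came from a library, no fit was made. The main fit was the robust quasi-likelihood test of edgeR 4.0.16 (R 4.3.3) after TMM scaling, with low genes removed by filterByExpr (count minimum 10) and Benjamini-Hochberg adjustment over every gene tested. DESeq2 1.42.0 was an alternative. Adjusted p-values of the comparisons by label rest on the spread between the 3 libraries of a label. Between the classes and for differences of label effects the library was a block, and they rest on the spread of within-library differences. Shares were compared with exact permutation tests (scipy 1.17.1). Clusters came from scanpy 1.11.5 and leidenalg 0.10.2 (1500 variable genes, 20 components, resolution 0.8). Scripts were tested on simulated data.

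The members, gene lists and tests were chosen with earlier results of these data known. Cluster settings, name ties and the genes that bar a name were set after the clusters were seen. Named genes were Elavl1, the markers of the gate, the 10 largest rises and falls of each comparison among called and separated genes with at least 50 CPM on one side (100 between classes), and up to 4 called genes per list, or its most abundant gene where none was called. Of the last kind, only some are written out, and these, Gm42418, H2-Aa, Itgal and Acta1 in Flt3/Itgax-positive cells were picked after values were seen. Ctsd and Cd74 in the comparison of the classes were named outside this rule. Alternatives were other cell filters and gates, thinning, other scaling and tools, a replicate block and leaving out each library.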

Additional observations from a re-analysis of the deposited data

How the results depend on the processing

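The gated share of kept barcodes kept its direction, with no overlap between labels, under every alternative run, and leaving out a library gave log2 ratios of 1.21 to 1.32. The log2 ratio of the C1q-positive share was 0.275 to 0.386 without 1 library. That of the share with a T or NK gene UMI was −0.0966 to 0.00791 without 1 library and turned positive with a 500-gene and 25% mitochondrial limit (0.0526), a minimum of 1000 UMIs (0.0236) and without cells high in epithelial UMIs (0.200).

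Calls by label were few and moved with the settings. Over all gated cells, 1 call became 2 with at least 4 markers, 10 without cells high in epithelial UMIs, 0 without the 5% of deepest cells, 0 without cells with a T or NK UMI, 16 in DESeq2, 4 with no filter on low counts, 20 with each cell thinned to at most 1000 UMIs, 10 in the macrophage-, monocyte- and cDC-like clusters alone, and 0 to 1 without 1 library. In C1q-positive cells, 1 call became 0 with the 500-gene and 25% limit, 2 with at least 4 markers, 2 without the deepest cells, 12 in DESeq2, 73 with no filter, 9 with thinning to 1000 UMIs and 0 to 27 without 1 library, the 27 without control replicate 2. In Flt3/Itgax-positive cells, 0 calls became 3 without cells high in epithelial UMIs, 4 in DESeq2, 1 with no filter, 1 with thinning to 1000 UMIs and 0 to 0 without 1 library. Between the 2 classes, 1103 calls became 2153 with no filter, 600 without the library block, 298 with thinning to 1000 UMIs and 768 to 967 without 1 library, and the Fabp2 call was lost without the block (edgeR adjusted p = 0.229). The difference of label effects between the classes went from 0 to 5 calls without the deepest cells, 31 with no filter and 0 to 6 without 1 library. That between gated and Cd3e-positive cells went from 0 to 21 with the gate on cells thinned to 500 UMIs, 4 with at least 4 markers, 41 without cells high in epithelial UMIs, 10 without cells with a T or NK UMI, 2 in DESeq2, 45 with no filter, 33 with thinning to 1000 UMIs, 52 in the named myeloid clusters alone and 0 to 12 without 1 library. With the gate on thinned cells, a barcode with a Cd3e UMI in its full counts could stand on both sides of the last comparison. The causes were not tested.

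The labels do not say whether replicate numbers pair the animals. Same-number deviations from the group means correlated at −0.127, −0.502 and −0.472 in the gated cells, and those of other pairs at −0.0195 to 0.464. Deviations from a mean of 3 libraries depend on each other, so these values cannot decide whether animals were paired. With the replicate block 0 genes were called over all gated cells, 0 in C1q-positive and 0 in Flt3/Itgax-positive cells, and Acta1 had edgeR adjusted p-values of 0.605 and 0.981 in the first 2. The Acta1 call over all gated cells was also lost without the deepest cells (0.184) and without cells with a T or NK UMI (0.116), and in C1q-positive cells with the 500-gene and 25% limit (0.101).

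Uncalled genes that changed direction are given as log2 differences. In gated cells these were, with the gate on thinned cells, Lyz2 0.118, Cd74 0.230, Csf1r 0.434 and Cd68 0.190. In the named myeloid clusters alone they were Lyz2 0.430, Cd74 0.0648, Csf1r 0.695, Cd68 0.306 and Fcer1g −0.130. Without cells high in epithelial UMIs Lyz2 was 0.0743, Csf1r 0.0386 and, in Flt3/Itgax-positive cells, Elavl1 −0.0647. Without cells with a T or NK UMI Csf1r was 0.664, Cd68 0.135 and Tyrobp −0.0162. Csf1r was 0.0895 with at least 4 markers, 0.0417 without the deepest cells and 0.670 with thinning to 1000 UMIs. Apoe in C1q-positive cells was 0.594 without the deepest cells and 0.0914 with thinning to 1000 UMIs, and Elavl1 in Flt3/Itgax-positive cells was −0.00621 without the deepest cells. Without 1 library the ranges in gated cells were −0.705 to 0.101 for Lyz2, −0.0839 to 0.753 for C1qa, −0.0948 to 0.905 for C1qb, −0.00280 to 0.623 for Tyrobp, −0.0298 to 0.544 for Fcer1g, −0.635 to 0.157 for Cd74, −0.375 to 0.258 for Csf1r, −0.510 to 0.0499 for Cd68 and −0.888 to 0.0807 for Flt3, and in Flt3/Itgax-positive cells −0.190 to 0.603 for Elavl1. Between the classes Elavl1 was −0.131 with at least 4 markers, −0.191 without TMM, −0.0601 with no filter and −0.341 to 0.315 without 1 library. Hbb-bs there was −0.131 with at least 1000 UMIs, −0.270 with at least 4 markers, −0.232 without TMM, −0.0941 with no filter, −2.45 without the library block and −0.618 to 0.907 without 1 library.

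Classes with fewer than 10 cells in a library could not be fitted: C1q-positive cells and both comparisons of the 2 classes with the gate on thinned cells, without cells high in epithelial UMIs and without cells with a T or NK UMI, and Flt3/Itgax-positive cells in the first and last of these. The thinning to 1000 UMIs and the use of named clusters alone were chosen after seeing the data, the latter after the calls. Depth was a median of 1349 UMIs per C1q-positive and 5647 UMIs per Flt3/Itgax-positive cell, which limits the low genes that could be tested.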

Other observations

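Within the 181 cells of the macrophage-, monocyte- and cDC-like clusters, a selection made after the calls above were seen, 10 of 3082 genes were called by edgeR, all higher in the IE-HuR-/- libraries. The list held Reg3g, Reg3b, Fabp6 and Gpx2, genes of intestinal epithelial cells, with Mt1, Acta1, Npl, Svbp, Adamdec1 and Ms4a7. Reg3g, an antimicrobial lectin, stood at 21.0, 29.8 and 17.0 CPM in control and 267, 215 and 286 CPM in IE-HuR-/- libraries, and Acta1 at 0, 0 and 0 CPM against 75.5, 53.7 and 132 CPM. Adamdec1 stood at 38.6, 5.97 and 5.67 CPM against 201, 246 and 291 CPM, and Ms4a7, a membrane protein of macrophages, at 73.6, 65.6 and 51.0 CPM against 327, 268 and 404 CPM. All 170 Adamdec1 UMIs and 229 of the 252 Ms4a7 UMIs of these cells lay in cluster 2, which held 3, 3 and 2 cells of the control and 23, 25 and 16 cells of the IE-HuR-/- libraries, so these values cannot be told apart from the number of cells in that cluster.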
